A study of Mus musculus with 8 samples.

Results

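The insulin-like growth factor binding protein genes Igfbp1 to Igfbp7 were followed in long-read gene counts of differentiating mouse embryonic stem cells (ESCs). They were taken by symbol, 7 of the 24421 genes counted, and the family was chosen on the change of Igfbp5 between the states, which was already known. The values between the states are therefore given as a description. R1 cells, a single mouse ESC line, were either undifferentiated and not exposed to retinoic acid (Undiff) or had formed embryoid bodies for 4 days and then received 2 µM retinoic acid (RA), which drives differentiation, over a further 4 days (Day4). The labels call both states embryoid bodies, whereas the study's methods describe Undiff cells as kept with leukaemia inhibitory factor, so the culture form and the RA exposure cannot be told apart between the states. Long reads of polyadenylated RNA were made on the Oxford Nanopore (ONT) platform with 2 kits, the Direct RNA kit, which reads the native RNA strand from an input of 500 ng, and the cDNA kit, which reads PCR-amplified copies from 50 ng. Each of the 4 groups of state and kit had 2 replicates, 8 libraries in all.

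Insulin-like growth factors (IGFs) are secreted hormones that promote growth and survival through the receptor Igf1r. The classical IGFBPs are secreted proteins that bind IGFs with high affinity, carry them, and either hold them back from the receptor or release them to it, in part after cleavage by proteases. Igfbp7 binds IGFs only weakly and is often set apart from the classical members. In embryos, Igfbp genes are expressed in tissue-specific patterns, and IGFs with their binding proteins are part of the growth control of many mesodermal and endodermal tissues.

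Between 283461 and 907489 reads fell on genes in a Direct RNA library and between 948657 and 2088592 in a cDNA library. Levels are given as CPM, reads on the gene scaled to a library of 1e6 reads on genes. A floor of 3 reads per library was used, which came to 3.31 to 10.6 CPM in Direct RNA and 1.44 to 3.16 CPM in cDNA. Intervals and these floors cover counting error only. Summed over 5 ESC markers (Pou5f1, Nanog, Sox2, Zfp42 and Esrrb), Undiff libraries had 4807 to 4907 CPM in Direct RNA and 1781 to 2538 CPM in cDNA, and Day4 libraries 45.9 to 141 and 6.07 to 85.7 CPM. The state labels thus matched the markers, and some ESC marker RNA was present at Day4. Between kits, plain CPM was lower in cDNA for the typical gene, with a median log2 ratio of -0.80 in Undiff and -0.62 in Day4, a shift that the size factors of the fits remove.

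The 4 members that were higher at Day4 in both kits, and Igfbp2, which was not, are shown first by their promoter sequence, since members that moved together may be compared at their starts. Each line below gives 250 bases before and 50 bases from the RefSeq transcription start of GRCm38.p6, 5′ to 3′ on the strand of the gene. Capitals mark matches to a TATA box, with the letters TATAAA or the variant with the letters TATATA (in 17.1% of 32851 RefSeq windows of the same length), to TATTTAA (4.51%) and to GGGCGG (a GC box, 35.7%), each sought on both strands.
Igfbp5 (GRCm38.p6 chr1:72874816-72875115, minus strand): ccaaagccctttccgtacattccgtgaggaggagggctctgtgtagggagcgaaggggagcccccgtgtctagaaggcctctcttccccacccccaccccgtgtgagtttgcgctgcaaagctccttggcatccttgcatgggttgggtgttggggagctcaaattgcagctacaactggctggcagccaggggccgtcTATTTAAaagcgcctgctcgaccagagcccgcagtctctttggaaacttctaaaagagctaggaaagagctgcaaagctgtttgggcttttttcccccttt
Igfbp4 (GRCm38.p6 chr11:99040994-99041293, plus strand): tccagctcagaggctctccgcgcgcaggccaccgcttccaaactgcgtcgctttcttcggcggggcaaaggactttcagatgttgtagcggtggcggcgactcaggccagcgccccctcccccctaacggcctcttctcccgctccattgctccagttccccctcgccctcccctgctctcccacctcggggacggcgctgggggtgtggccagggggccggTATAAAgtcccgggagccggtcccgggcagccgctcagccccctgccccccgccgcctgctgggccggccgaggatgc
Igfbp3 (GRCm38.p6 chr11:7213874-7214173, minus strand): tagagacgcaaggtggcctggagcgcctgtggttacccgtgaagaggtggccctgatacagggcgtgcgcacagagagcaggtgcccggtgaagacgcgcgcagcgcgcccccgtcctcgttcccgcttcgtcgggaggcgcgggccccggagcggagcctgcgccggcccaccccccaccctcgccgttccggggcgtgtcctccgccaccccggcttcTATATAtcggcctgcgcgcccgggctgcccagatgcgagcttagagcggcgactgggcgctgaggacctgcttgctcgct
Igfbp6 (GRCm38.p6 chr15:102143936-102144235, plus strand): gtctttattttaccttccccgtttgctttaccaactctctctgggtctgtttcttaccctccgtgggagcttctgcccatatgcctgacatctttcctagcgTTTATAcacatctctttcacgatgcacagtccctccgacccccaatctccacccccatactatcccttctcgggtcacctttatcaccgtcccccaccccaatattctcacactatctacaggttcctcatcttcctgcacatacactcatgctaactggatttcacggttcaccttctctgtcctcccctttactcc
Igfbp2 (GRCm38.p6 chr1:72824230-72824529, plus strand): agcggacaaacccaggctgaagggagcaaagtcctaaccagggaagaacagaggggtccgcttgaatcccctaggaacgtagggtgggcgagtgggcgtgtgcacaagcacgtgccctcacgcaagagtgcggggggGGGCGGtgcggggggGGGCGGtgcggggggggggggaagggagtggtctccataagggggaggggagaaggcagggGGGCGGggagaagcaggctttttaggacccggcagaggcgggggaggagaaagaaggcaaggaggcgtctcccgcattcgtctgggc
Counted from the start site, Igfbp4 had TATAAA at -28, Igfbp3 TATATA at -30 and Igfbp5 TATTTAA at -51. In Igfbp6 the match, TTTATA, is TATAAA on the other strand and lay farther away, at -148. The annotated starts differ for some of these genes. The GENCODE gene begins downstream of the RefSeq start for Igfbp6 (102144362 against 102144186) and Igfbp2 (72824503 against 72824480). For Igfbp5, on the minus strand, it begins upstream (72874884 against 72874865), so its TATTTAA lies nearer to the GENCODE start. In the Igfbp2 window shown, the first of its 2 RefSeq starts, there was no TATA match and 3 GC boxes lay at -113, -98 and -37, and the window of the other start held neither. Of the members not shown, Igfbp7, higher at Day4 in Direct RNA though not called, had no TATA match and GC boxes at -110, -96, -74 and -44. Igfbp1 had no match of either kind. The half-site AGGTCA, which retinoic acid receptors can bind, occurred in 16.3% of all windows and in none of the 8 windows of the 7 members (Igfbp2 has 2). These matches are letters in a window and were not tested for binding or for a link with the direction of change.

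The genes lie in 3 arrangements on GRCm38 (GENCODE vM21). Igfbp2 (ENSMUSG00000039323.18, chr1:72824503-72852474, plus strand) and Igfbp5 (ENSMUSG00000026185.8, chr1:72857932-72874884, minus strand) face each other tail to tail with 5457 bases and no other gene between them. Igfbp1 (ENSMUSG00000020429.7, chr11:7197782-7202546, plus strand) and Igfbp3 (ENSMUSG00000020427.11, chr11:7206086-7213923, minus strand) do so with 3539 bases between them. Igfbp4 (ENSMUSG00000017493.12, chr11:99041244-99054392, plus strand), Igfbp6 (ENSMUSG00000023046.6, chr15:102144362-102149511, plus strand) and Igfbp7 (ENSMUSG00000036256.13, chr5:77349240-77408041, minus strand) lie apart. The longest annotated transcript ranges from 1112 bases for Igfbp6 to 6006 bases for Igfbp5. Counts cover all exons of a gene, untranslated regions included.

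Differentiation was accompanied by a change in which Igfbp genes were read. In Undiff libraries most Igfbp reads came from Igfbp2, and at Day4 most came from Igfbp5 and Igfbp4, with Igfbp3 and Igfbp6 above their Undiff levels as well. The summed level of the family was 667 ± 34.8 CPM (SD, n = 2) in Direct RNA Undiff and 2836 ± 499 CPM in Direct RNA Day4. The corresponding cDNA sums were 55.7 ± 6.26 and 622 ± 55.2 CPM. Leaving Igfbp2 aside, Direct RNA had 49.3 ± 12.9 CPM in Undiff and 2456 ± 508 CPM at Day4, and cDNA had 8.38 ± 4.40 and 604 ± 49.0 CPM.

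**Figure D1:**
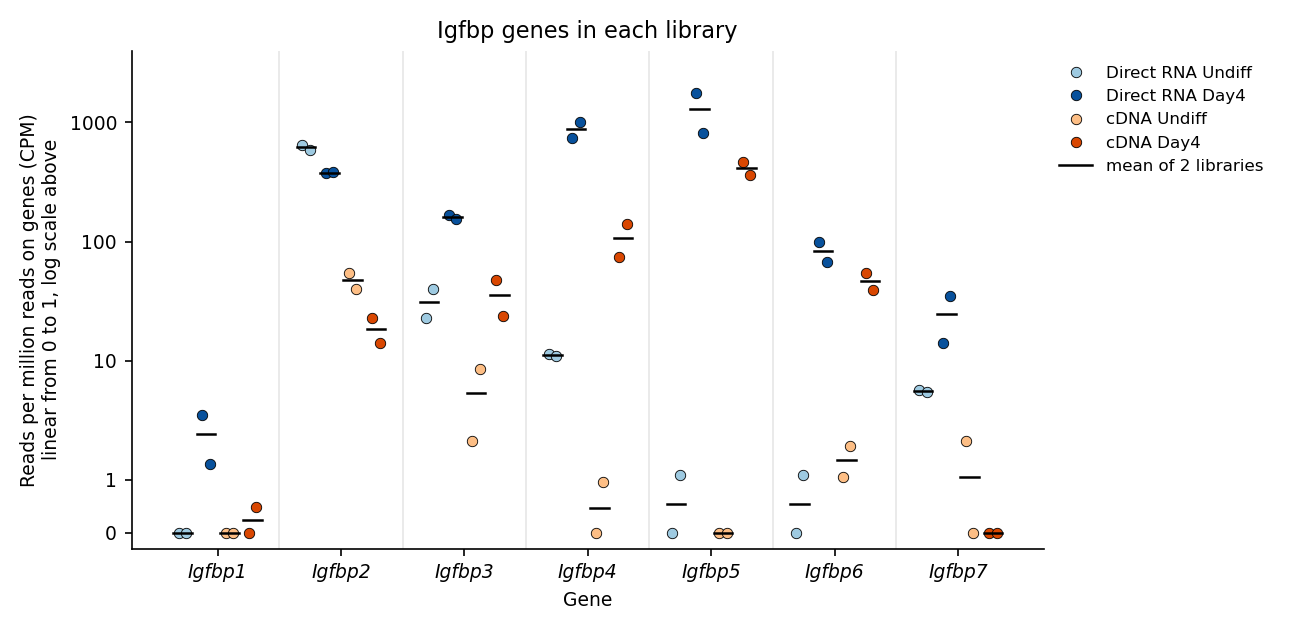
CPM of each Igfbp gene in the 8 libraries, on an axis that is linear up to 1 and logarithmic above. Points are single libraries coloured by kit and state and bars are means of 2 libraries. Igfbp3, Igfbp4, Igfbp5 and Igfbp6 lie higher at Day4 in both kits, Igfbp2 lies lower, and Igfbp1 stays near 0.

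Igfbp5 encodes a binding protein known from bone, muscle and the extracellular matrix. It had 0 and 1 reads in the Direct RNA Undiff libraries and 0 and 0 reads in the cDNA Undiff libraries. At Day4 it had 506 and 608 reads in Direct RNA (1785 and 824 CPM) and 609 and 757 reads in cDNA (462 and 364 CPM). Every Day4 library thus held at least 506 reads where no Undiff library held more than 1. The ratio of pooled CPM was 1370.3 in Direct RNA, with an exact 95% counting interval of 245 to 54172 that is wide because it rests on 1 Undiff read. In cDNA, Day4 was at least 130-fold higher, taking 3 reads in the shallower Undiff library as the floor. The order of the group means was Direct RNA Day4, cDNA Day4 and then both Undiff groups, which did not differ beyond the floor.

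Igfbp4 encodes a binding protein that is cleaved by the protease Pappa in the presence of IGFs. It had 4 and 10 reads in Direct RNA Undiff (11.5 and 11.0 CPM) and 211 and 747 reads in Direct RNA Day4 (744 and 1013 CPM). The cDNA libraries held 0 and 2 reads in Undiff and 98 and 295 reads at Day4 (74.3 and 142 CPM). Every Day4 library lay above every Undiff library, and the log2 fold change was 6.01 (SE 0.48) in Direct RNA. In cDNA the pooled ratio was 176, with a counting interval of 48.3 to 1456 that rests on 2 Undiff reads. The group means were well apart. Direct RNA Day4 came first with 879 ± 189.8 CPM, before cDNA Day4 with 108 ± 47.8, Direct RNA Undiff with 11.2 ± 0.33 and cDNA Undiff with 0.48 ± 0.68, the last under the floor.

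Igfbp6 encodes the member with a marked preference for Igf2 over Igf1. It had 0 and 1 reads in Direct RNA Undiff and 28 and 50 reads at Day4 (98.8 and 67.8 CPM). The cDNA libraries had few in Undiff, 1 and 4 reads (1.05 and 1.92 CPM), and 72 and 81 reads at Day4 (54.6 and 39.0 CPM). Day4 and Undiff did not overlap in either kit. The pooled ratio was 95.9 (counting interval 16.7 to 3838) in Direct RNA and 27.4 (11.5 to 85.5) in cDNA, where the fitted log2 fold change was 4.22 (SE 0.83).

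Igfbp3 encodes the main IGF carrier of the circulation. It was already read in Undiff, with 8 and 36 reads in Direct RNA (23.0 and 39.7 CPM), and had 48 and 115 reads at Day4 (169 and 156 CPM). With the cDNA kit there were 2 and 18 reads in Undiff (2.11 and 8.62 CPM) and 63 and 49 reads at Day4 (47.8 and 23.6 CPM). Day4 lay above Undiff in each kit, by a log2 fold change of 2.12 (SE 0.52) in Direct RNA and 2.21 (SE 0.77) in cDNA. The Direct RNA Undiff and cDNA Day4 libraries overlapped. This smaller change was no longer called in either kit when any 1 of its 4 libraries was left out, with log2 fold changes of 1.70 to 2.52 in Direct RNA and 1.42 to 3.14 in cDNA.

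Igfbp2 encodes a binding protein found in many embryonic tissues and body fluids, and it was the most abundant member in Undiff. It had 227 and 530 reads in Direct RNA Undiff (651 and 584 CPM) and 106 and 285 reads at Day4 (374 and 386 CPM). With the cDNA kit there were 52 and 83 reads in Undiff (54.8 and 39.7 CPM) and 30 and 29 reads at Day4 (22.8 and 14.0 CPM). Day4 lay under Undiff in each kit without overlap, with log2 fold changes of -0.79 (SE 0.29) in Direct RNA and -1.62 (SE 0.59) in cDNA. Neither met the thresholds for a call, while in cDNA the gene was called lower by edgeR and by DESeq2 with a minimum of 10 reads over the libraries (-1.64). Direct RNA Undiff had the highest mean with 618 ± 47.7 CPM. Direct RNA Day4 followed with 380.2 ± 8.81, cDNA Undiff with 47.3 ± 10.7 and cDNA Day4 with 18.4 ± 6.22, each neighbour farther away than the spread of its replicates.

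Igfbp7 encodes a weak IGF binder that is secreted by endothelium and other stromal cells. It had 2 and 5 reads in Direct RNA Undiff (5.74 and 5.51 CPM) and 4 and 26 reads at Day4 (14.1 and 35.3 CPM). The cDNA kit gave 2 and 0 reads in Undiff and none in either Day4 library. In Direct RNA Day4 lay above Undiff, with a pooled ratio of 5.27 (counting interval 2.27 to 14.2) and a fitted log2 fold change of 1.77 (SE 1.03) that was not called, though edgeR called it. Without Day4 replicate 2, which held 26 of the 30 Day4 reads, the log2 fold change was 0.76. Igfbp1, a liver protein that responds to insulin, had 1 read in each Direct RNA Day4 library and in 1 cDNA Day4 library, and no read in the other 5, so no fold is given.

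A gene was called by DESeq2 when its adjusted p did not exceed 0.05, its log2 fold change was 1 or more in either direction and its mean was 5 normalised reads or more. With these thresholds 6 members could be tested between the states in Direct RNA. A total of 4 were called higher at Day4, where 9.54% of all genes tested were, and 0 lower, where 7.67% were. In cDNA 5 members could be tested, and 4 were called higher (8.69% of all genes) and 0 lower (9.24%). The 4 were Igfbp3, Igfbp4, Igfbp5 and Igfbp6 in both kits, and 6.19% of the 8720 genes tested in both were called higher in both. With replicate number as a block the 4 held in Direct RNA, and in cDNA 2 did, Igfbp4 and Igfbp6, while Igfbp3 (log2 fold change 2.12) and Igfbp5 (1.77, against 9.32 without the block) were not called. The blocked Igfbp5 value was fitted to 0 and 0 Undiff reads against 609 and 757 at Day4, so it does not describe the size of the change. edgeR called 5 members higher in Direct RNA (18.7% of all genes), and 4 higher (17.0%) and 1 lower (15.6%) in cDNA. Because the members were chosen with such changes known, nothing is read from these counts.

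**Figure D2:**
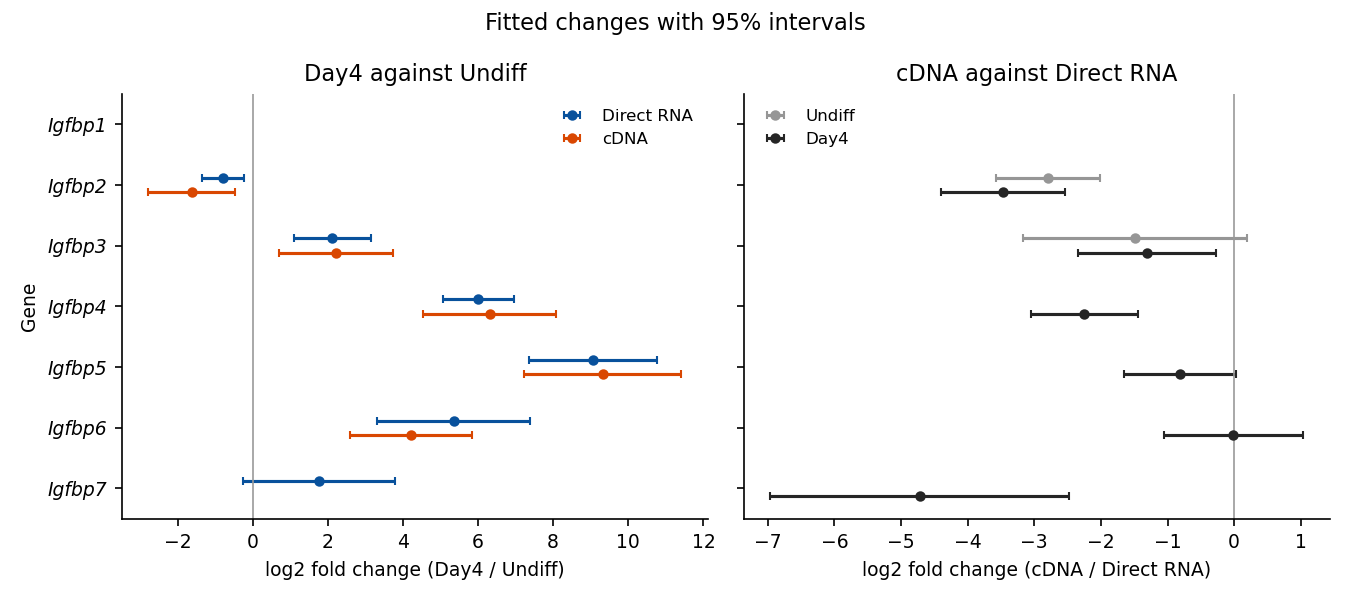
Fitted log2 fold changes of the members with a mean of at least 5 normalised reads, Day4 against Undiff by kit (left) and cDNA against Direct RNA by state (right). Points are DESeq2 estimates from 4 libraries and bars are 95% intervals. Igfbp3 to Igfbp6 lie to the right of 0 in both kits on the left, and on the right Igfbp2 lies far to the left of 0 in both states while Igfbp6 lies at -0.01 in Day4.

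The make-up of the family changed with the state in every library. Igfbp2 took 94.2% and 90.9% of the Igfbp reads in the Direct RNA Undiff libraries (95% Wilson intervals 90.5 to 96.5 and 88.3 to 93.0) and 91.2% and 77.6% in the cDNA Undiff libraries (81.1 to 96.2 and 68.8 to 84.4). At Day4 its share was 11.7% and 15.6% with Direct RNA reads, and 3.44% and 2.39% with cDNA reads. Igfbp5 took 56.0% and 33.2% of the Igfbp reads in the Direct RNA Day4 libraries and 69.8% and 62.5% in the cDNA Day4 libraries. Igfbp4 took 23.3% and 40.8% of the Direct RNA reads and 11.2% and 24.3% of the cDNA reads. In both kits the Igfbp5 share was higher in Day4 replicate 1 and the Igfbp4 share in replicate 2, whereas the shares of Igfbp2 and Igfbp3 were higher in replicate 2 with Direct RNA and in replicate 1 with cDNA.

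Per kilobase of the longest transcript, which discounts the long Igfbp5 and Igfbp4 messages, the leading member at Day4 depended on the kit and the replicate. In Direct RNA Day4 replicate 1 the Igfbp5 share per kilobase was 31.3% and that of Igfbp2 was 30.1%, and in replicate 2 Igfbp2 led with 34.7%, before Igfbp4 with 31.0% and Igfbp5 with 16.1%. In the cDNA Day4 libraries Igfbp5 led with 42.1% and 39.5% of the total per kilobase. Igfbp6, the shortest message, came next in replicate 1 with 26.9%, and in replicate 2 it came after Igfbp4, with 22.8% against 24.1%. In Undiff, Igfbp2 led on this scale too, with 84.6% to 96.7%. A Direct RNA read is an RNA molecule or a fragment of one, while cDNA reads are PCR copies and not independent molecules, so both scales are given.

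**Figure D3:**
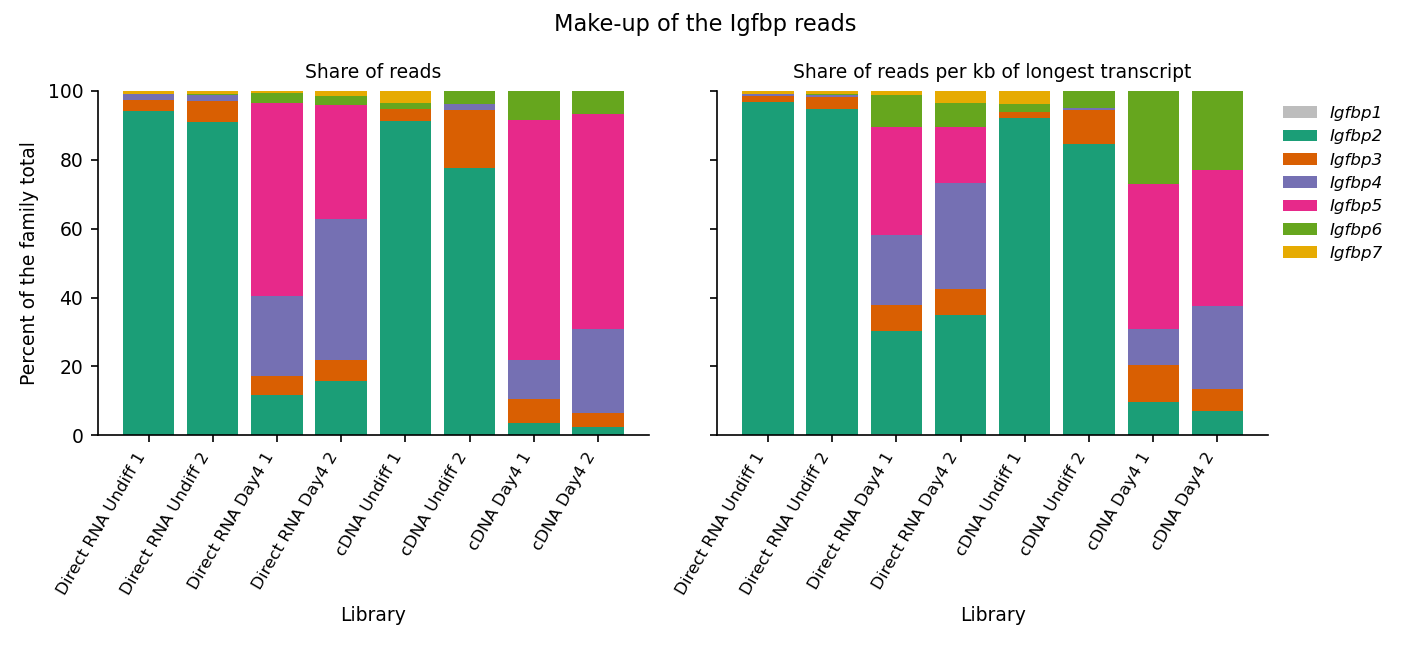
Share of each Igfbp gene in the Igfbp total of each library, in percent of reads (left) and in percent of reads per kilobase of the longest transcript (right). Bars are single libraries and colours are genes. Igfbp2 fills 77.6% to 94.2% of the reads in the Undiff libraries and 2.39% to 15.6% in the Day4 libraries.

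The members were next compared between the kits within a state, which the choice of the members had not used. In Undiff 2 members could be tested, and 1, Igfbp2, was lower in cDNA, where 12.0% of all genes tested were called lower. Its log2 difference, cDNA against Direct RNA, came to -2.79 (SE 0.40, DESeq2 adjusted p = 1.53e-10), relative to the typical gene. Igfbp3 differed by -1.49 with a 95% interval of -3.17 to 0.19 (DESeq2 adjusted p = 0.272), and edgeR called it as well as Igfbp2, 2 members where edgeR called 22.7% of all genes lower.

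At Day4 3 of 6 members were called lower in cDNA (Igfbp2, Igfbp4 and, with no cDNA read, Igfbp7), where 13.8% of all genes tested were, and 0 were called higher, where 18.2% were. Igfbp2 was again the clearest, with a log2 difference of -3.47 (SE 0.47, DESeq2 adjusted p = 3.56e-11), and every cDNA library lay under every Direct RNA library. Igfbp4 differed by -2.25 (SE 0.41, DESeq2 adjusted p = 1.40e-06). For Igfbp5 the difference was -0.81 with an interval of -1.66 to 0.03 (adjusted p = 0.194), and for Igfbp6 it was -0.01 with an interval of -1.06 to 1.04 (adjusted p = 0.989). Igfbp3 missed the threshold at -1.31 (interval -2.35 to -0.27, adjusted p = 0.0605) and was called lower under 5 of 10 alternatives, namely by edgeR, by DESeq2 with TMM factors, with a minimum of 10 reads or with crossed replicate numbers as a block, and without cDNA Day4 replicate 1. edgeR called 4 members lower and 23.7% of all genes.

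Igfbp7 was the third member called lower in cDNA at Day4. With no read in either cDNA library it was at least 11-fold lower in CPM. It reached the minimum mean through the Direct RNA libraries alone, so nothing is read from its call, which rests on 30 Direct RNA reads, 26 of them in replicate 2. It was lost with replicate number as a block (log2 difference -1.17), without Direct RNA Day4 replicate 2 and without cDNA Day4 replicate 2, and the log2 difference ranged from -4.86 to -2.74 over the omissions of single libraries. The last 85 bases of Igfbp7 (chr5:77349240-77349324) are shared with the last exon of Polr2b, a subunit gene of RNA polymerase II on the plus strand, here named after its values were seen. Polr2b had 241, 175, 131 and 113 CPM in the Direct RNA libraries and 6.32, 10.5, 3.79 and 8.66 CPM in the cDNA libraries, a log2 difference of -3.57 (SE 0.53) in Undiff and -3.31 (SE 0.59) in Day4. The methods name Direct RNA alone as counted by strand at the gene level, and the exon counts of cDNA, not used here, were made without strand, so cDNA reads of the pair may not be told apart. The part of the shared exon in either result was not tested.

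Whether the change between the states differed between the kits was asked with the interaction of kit and state. Of 17267 genes 2 were called (0.0116%), and 161 (0.932%) had an unadjusted p of at most 0.05, while edgeR called 14 (0.0811%). None of the 7 members was called by either tool. Only Igfbp7 had an unadjusted p of at most 0.05, with an interaction of -5.40 (SE 2.61, DESeq2 adjusted p = 1). For Igfbp2 the interaction was -0.91 with an interval from -2.09 to 0.27, and for Igfbp3 the difference was 0.14 with an interval from -1.72 to 2.00. For Igfbp4, Igfbp5 and Igfbp6, which had 0 to 4 reads in each cDNA Undiff library, the intervals spanned from -1.57 to 3.32, from -3.15 to 4.82 and from -5.27 to 1.45, so differences of several log2 units were not detectable at this depth.

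The pathway around the binding proteins was followed with 50 genes. In Direct RNA 29 could be tested between the states, of which 6 were called higher (9.54% of all genes were), 3 lower (7.67%) and 20 in neither direction. In cDNA 31 could be tested, of which 8 were higher (8.69% of all genes), 0 lower (9.24%) and 23 in neither direction. With any 1 library left out, fewer genes of the list were called in its kit, and fewer of all genes as well. Replicate number as a block left 4 calls on the list for Direct RNA and 5 for cDNA. Calls over all genes also fell with this block, from 1660 to 843 for Direct RNA and from 1842 to 1375 for cDNA. Those tested had a median log2 fold change of 0.57 in Direct RNA, where all genes tested had 0.03, and of 0.50 in cDNA, where all genes had 0.00. The list was drawn up with earlier results of these data known, so the calls and p-values of its genes between the states are given as a description. This holds also for genes that reached the minimum mean through 1 state alone.

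Both IGF ligands were higher at Day4. Igf2, the main fetal IGF, had 3 and 45 reads in Direct RNA Undiff (8.61 and 49.6 CPM) and 556 and 910 reads at Day4 (1961 and 1234 CPM), which gave 4.91 on the log2 scale (SE 0.95, DESeq2 adjusted p = 9.73e-06). The cDNA libraries had 5 and 9 reads in Undiff and 692 and 1900 reads at Day4, a change of 6.71 (SE 0.54, adjusted p = 3.18e-32). The 2 Direct RNA Undiff replicates differed several fold, yet both lay far under Day4. Exons of Igf2 overlap those of Gm49394 on the same strand and Igf2os on the other, so its level is uncertain. Igf1, the main postnatal IGF, was close to absent from Direct RNA Undiff, with 0 and 1 reads, and had 6 and 19 at Day4, a pooled ratio of 30.8 with a counting interval of 5.03 to 1263 (DESeq2 adjusted p = 0.0409). The cDNA libraries had 0 and 5 reads in Undiff and 94 and 185 reads at Day4, or 5.02 on the log2 scale (SE 0.78, adjusted p = 1.18e-08). The insulin genes Ins1 and Ins2 and the receptor gene Insrr had no read in any library.

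**Figure D4:**
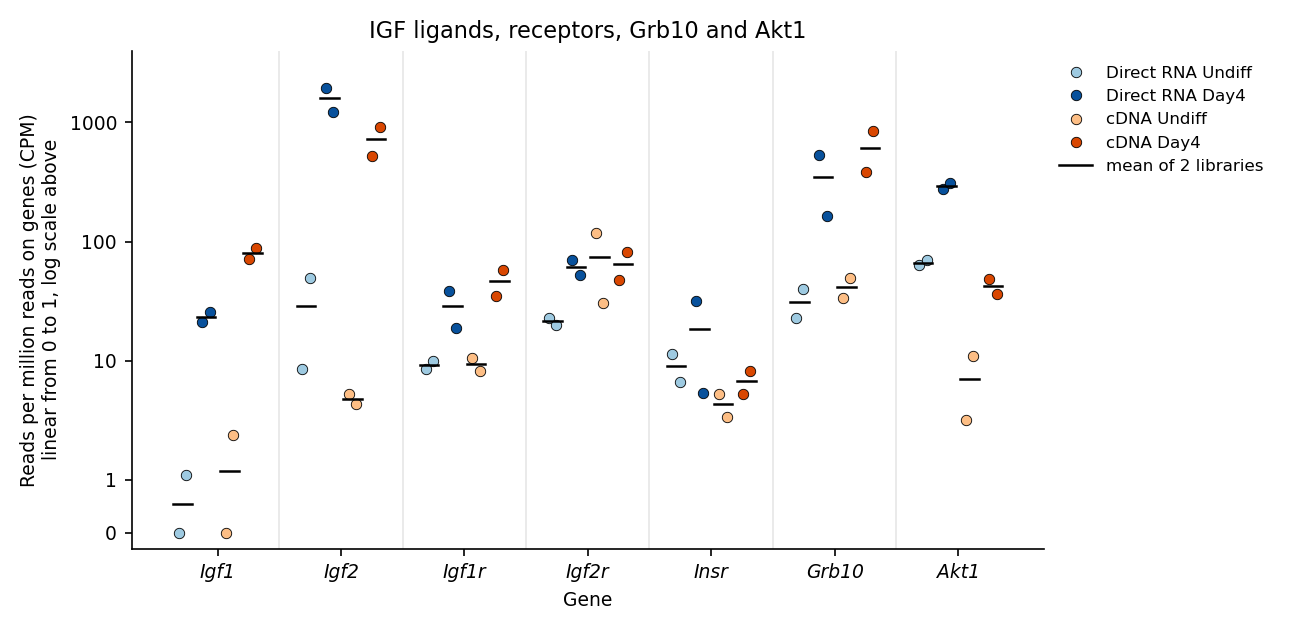
CPM of IGF ligands, receptors and 2 signalling genes in the 8 libraries, on an axis that is linear up to 1 and logarithmic above. Points are single libraries coloured by kit and state and bars are means of 2 libraries. Igf1, Igf2, Grb10 and Akt1 lie higher at Day4 in both kits, while the Insr libraries of the states overlap in Direct RNA.

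Of the 4 receptors 3 could be tested, with 0 DESeq2 calls in Direct RNA (9.54% of all genes were called higher and 7.67% lower) and 1, higher, in cDNA (8.69% and 9.24%). edgeR called 1 receptor higher in each kit, where it called 18.7% of all genes higher in Direct RNA and 17.0% in cDNA. Igf1r, the signalling receptor, had 8.61 and 9.92 CPM in Direct RNA Undiff and 38.8 and 19.0 CPM at Day4, a log2 fold change of 1.30 that was not called (DESeq2 adjusted p = 0.513). In cDNA it rose from 10.5 and 8.14 CPM to 34.9 and 58.2 CPM, by 1.91 (SE 0.64, adjusted p = 0.0296). Igf2r, which clears Igf2, had 23.0 and 19.8 CPM in Direct RNA Undiff and 70.6 and 52.9 CPM at Day4 (log2 fold change 1.34, adjusted p = 0.241). Its cDNA Undiff replicates, 119 and 30.6 CPM, spanned the Day4 values of 47.8 and 81.4 CPM (-0.56, adjusted p = 0.758). For Insr, the insulin receptor, the changes were 0.74 and 0.29 with adjusted p of 0.861 and 0.951.

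Of the 10 proteases and partners of IGFBPs, 4 could be tested in each kit. Htra1, a secreted protease that cleaves IGFBPs, fell in Direct RNA from 71.7 and 44.1 CPM to 3.53 and 0 CPM, a pooled ratio of 0.0189 with a counting interval of 4.72e-04 to 0.109 (DESeq2 adjusted p = 3.56e-04). In cDNA it had 1 and 30 reads in Undiff (1.05 and 14.4 CPM) and 0 and 2 at Day4 (0 and 0.963 CPM). Day4 lay under Undiff in CPM, but only Undiff replicate 2 was above the floor. The difference was not called (DESeq2 adjusted p = 0.0924). Pappa, the protease that cleaves Igfbp4 and Igfbp5, had at most 4 reads in a library and its relative Pappa2 at most 1. Igfals, which holds IGF and Igfbp3 in the ternary complex of serum, also had at most 4.

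Of the 12 other genes whose proteins carry an IGFBP-type domain, 3 could be tested in Direct RNA and 5 in cDNA. Ccn4, a matricellular protein of the WNT pathway, had no read in either Direct RNA Undiff library but 62 and 54 in those of Day4, at least a 17-fold rise (DESeq2 adjusted p = 5.81e-05). The cDNA libraries had 0 and 1 reads in Undiff and 150 and 177 reads at Day4, a pooled ratio of 292 (counting interval 52.1 to 11588, adjusted p = 1.60e-09). Ccn2, another matricellular protein, fell in Direct RNA by 2.57 (adjusted p = 0.0168) and had a change of -2.36 in cDNA (adjusted p = 0.119). It overlaps Gm15270 on the other strand. Esm1, an endothelial proteoglycan, had no read in Undiff and 66 and 456 reads in cDNA Day4, at least 43-fold higher there (adjusted p = 1.12e-04), and 1 and 7 reads in Direct RNA Day4. Esm1 in cDNA and Ccn4 in both kits reached the minimum mean through the Day4 libraries, so nothing is read from their adjusted p.

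Among 20 signalling genes, 17 could be tested in each kit. Grb10, an adaptor that restrains IGF and insulin receptors, rose by 3.16 in Direct RNA (SE 0.54, DESeq2 adjusted p = 2.90e-07) and by 3.44 in cDNA (SE 0.45, adjusted p = 3.47e-12). Akt1, a kinase under these receptors, rose by 1.98 (adjusted p = 3.36e-05) and 2.10 (adjusted p = 0.0290). Irs1, a docking protein of the receptors, had 2 reads in cDNA Undiff and 109 at Day4, a pooled ratio of 48.7 (counting interval 13.2 to 408, adjusted p = 2.15e-04), and its Direct RNA change was not called (adjusted p = 0.297). Pik3cb, a catalytic subunit of PI3-kinase, fell by 3.09 in Direct RNA (adjusted p = 0.0144) and had a change of -1.40 in cDNA (adjusted p = 0.543). Exons of Irs1 overlap Gm9747 on the opposite strand. For calls made in 1 kit only, the interaction had an adjusted p of 1 for each of these genes, so a difference between kits was not shown.

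Day4 embryoid bodies are mixtures of cells, and in bulk libraries fewer cells of a type and less RNA per cell cannot be told apart. Marker sums of some other cell types were higher at Day4, and those of others were not. Summed over 6 mesenchyme and fibroblast markers, Undiff libraries had 12.1 to 20.1 CPM in Direct RNA and 5.27 to 12.6 CPM in cDNA, and Day4 libraries 1607 to 3112 and 259 to 361 CPM. Of the 6 markers 3 or 4 had a read in an Undiff library, with Col1a2 and Col3a1 at 0 in all of those, and 5 or 6 had one at Day4. Thy1 alone was lower at Day4, with a mean CPM of 7.61 in Undiff and 2.03 at Day4 for Direct RNA, and of 5.60 and 0.48 for cDNA. Summed over 7 primitive and visceral endoderm markers, Undiff had 5.51 to 8.61 and 0.48 to 7.38 CPM and Day4 679 to 988 and 273 to 281 CPM. Between 1 and 3 of the 7 had a read in an Undiff library, with Gata6, Afp and Ttr at 0 in all of those, and 6 or 7 had one at Day4. Smooth muscle markers had 37.3 to 111 and 8.43 to 38.3 CPM in Undiff and 133 to 173 and 92.9 to 110.0 CPM at Day4, with Myh11 at 0 in 7 of the 8 libraries. That sum was carried by Acta2, with a mean CPM of 19.5 in Undiff and 126 at Day4 for Direct RNA, and of 9.77 and 98.0 for cDNA, while Tagln overlapped between the states in both kits (25.8 and 83.7 CPM in Undiff against 35.3 and 17.6 CPM at Day4 for Direct RNA, and 4.22 and 22.5 against 4.55 and 2.41 CPM for cDNA). Summed endothelial markers overlapped between the states in both kits (70.5 to 121 and 81.1 to 134 CPM in Direct RNA), and the single markers lay in opposite directions. Direct RNA means in Undiff and Day4 were 88.3 and 34.3 CPM for Pecam1, 0 and 18.6 CPM for Cdh5, and 1.43 and 47.2 CPM for Kdr. The summed neural markers were lower at Day4 in both kits (145 to 172 and 56.4 to 80.0 CPM in Direct RNA), which lay in Tubb3 (mean CPM of 145 and 12.7 for Direct RNA, 116 and 25.5 for cDNA), whereas Nes was higher at Day4 (8.93 and 46.5 CPM, and 1.72 and 13.4 CPM). The part of these cell types in the Igfbp values was not tested.

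The genes whose pattern over the 8 libraries was most like that of a member were found by the root mean square difference of log2(CPM + 5), each gene centred on its mean, among 9208 genes. For Igfbp5 they were Gas1 (0.54) and Ptn (0.60), where the median gene differed by 3.56. For Igfbp4 they were Cdkn1c (0.46) and Mmp2 (0.54), against a median of 2.68. For Igfbp6 they were Lhfp (0.20) and 1010001N08Rik (0.27), for Igfbp3 Phc2 (0.25) and Gabarapl1 (0.29), and for Igfbp2 Lrrc59 (0.26) and Fam129b (0.30). Exons of 1010001N08Rik overlap the endoderm marker Gata6 on the opposite strand, so cDNA reads of that pair may not be told apart. Ptn had 500.3 to 713 CPM in Direct RNA Day4 and 501 to 608 in cDNA Day4, and at most 2.20 CPM in any Undiff library. The points share libraries and their depth, and the choice depends on the pseudocount. With log2(CPM + 1), 0 of the 2 genes were kept for Igfbp2, Igfbp5 and Igfbp6 and 1 for Igfbp3 and Igfbp4.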

How the data were processed

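ONT libraries of R1 mouse ESCs were compared, in 4 groups of 2 replicates taken from the labels. The deposited files hold raw read counts for each gene symbol. To make them, the authors aligned reads to mm10 with minimap2, dropped secondary alignments and ran htseq-count on the iGenomes UCSC annotation. Per the methods, Direct RNA was counted by strand. The labels give RA as 2 mM in the treatment text and the design text gives the micromolar dose used here. Counters of reads given to no gene (38.1% to 61.7% of each library's entries) entered no test. No normalization had been applied.

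Counts were fitted for all 24421 genes with DESeq2 1.42.0 in R 4.3.3 (Wald test, shrunken log2 fold changes, no Cook's cutoff, no independent filtering) on 4 libraries for each state or kit contrast and, unshrunken, on 8 for the interaction, with Benjamini-Hochberg adjustment over all genes. The thresholds of a call were 0.05 for the adjusted p, 1 for the absolute log2 fold change and 5 for the mean normalised count, and the interaction needed only the first. Alternatives were edgeR 4.0.16 (quasi-likelihood, TMM), TMM factors in DESeq2, a minimum of 10 reads, no shrinkage, a replicate block and the omission of each library. Fits were tested on simulated counts. Ratios of pooled reads carry exact 95% counting intervals, and shares Wilson intervals (SciPy 1.17.1). Per the study's methods the replicates were cultured and treated separately, and both kits were run on the extracted RNA, so same-numbered libraries of a state may share a culture. Their deviations correlated between kits with r = 0.124 in Undiff and -0.416 in Day4.

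Named genes were all members, IGF ligands and receptors, every other gene of the IGF list called between states in a kit (1 such gene is not reported here), and the 2 genes most like each member with a mean of at least 10 CPM. Members and lists were chosen with earlier results of these data known. Gene models came from GENCODE vM21 and promoters from RefSeq. Short-read, exon and isoform data were not used here.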

Additional observations from a re-analysis of the deposited data

Results flagged for a closer look

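Foxo1, a transcription factor restrained by Akt kinases, lay on opposite sides of Undiff in the kits. It had 51.7 and 26.4 CPM in Direct RNA Undiff and 17.6 and 21.7 CPM at Day4, and in cDNA 2.11 and 6.22 CPM in Undiff and 6.83 and 9.63 CPM at Day4. Every Day4 library lay under Undiff in Direct RNA and above it in cDNA. The interaction of kit and state was 1.61 (SE 1.26, DESeq2 adjusted p = 1), so the difference did not pass the test. Foxo1 was named after its values were seen. Groups of 2 were not checked for outlying libraries.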

How the results depend on the processing

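Among the alternative values of the members' log2 fold changes, 303 kept direction and side of the threshold, 9 gained a call, 13 lost one and 5 turned sign. The signs that turned were of values near 0, Igfbp6 between kits at Day4 (-0.37 to 0.34 over the single omissions, 0.13 and 0.34 without Direct RNA replicate 1 or cDNA replicate 2) and the interaction of Igfbp3 (-0.66 to 1.41 over the single omissions, -0.38, -0.36 and -0.66 without Direct RNA Undiff replicate 2, cDNA Undiff replicate 1 or cDNA Day4 replicate 1). The cause was not tested.

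edgeR called 3257 genes in Direct RNA and 3348 in cDNA between the states, against 1660 and 1842 with DESeq2, and 4470 and 5144 genes between kits in Undiff and Day4, against 2784 and 3320. It called 2 members between kits in Undiff, 13 genes of the IGF list in cDNA and 14 genes for the interaction, against 2 with DESeq2. With TMM factors DESeq2 called 1 gene for the interaction.

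Same-numbered replicates correlated with r = 0.214 in Direct RNA and 0.5 in cDNA between the states, over 1395 genes, and the block changed no call of a member other than those given here. With the replicate block 843 genes were called in Direct RNA and 2 members in cDNA. Igfbp3 and Igfbp5 (log2 fold change 1.77, against 9.32) lost their calls there, as did Igfbp7 between kits at Day4 (-1.17). The blocked Igfbp5 value rests on Undiff libraries without a read and does not describe the size of its change. The IGF list then had 4 calls for Direct RNA and 5 for cDNA, where 1375 of all genes were called. The pairing with crossed numbers, chosen after seeing the data, called 3006 genes between kits at Day4, 4 members among them, and 1 gene for the interaction.

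Leaving out 1 library at a time gave 393 to 797 genes in Direct RNA, 709 to 1020 in cDNA, 932 to 1765 between kits in Undiff, 1164 to 1509 in Day4 and 0 to 13 for the interaction. Members called were 3 throughout for each state contrast, 1 between kits in Undiff and 2 to 4 in Day4, and IGF list genes 3 to 4 and 5 to 7. These fits leave an arm with 1 library, assumed to vary like the other group.

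TMM-scaled library sizes lowered Direct RNA levels and raised cDNA levels. At Day4 the Igfbp6 means of the kits then came to 58.7 (Direct RNA) and 57.6 CPM (cDNA), against 83.3 and 46.8. Igfbp1 had at most 1 read in any library, and Igfbp5 and Igfbp6 at most 1 in Direct RNA Undiff.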
